A study of Rattus norvegicus with 9 samples.

Results

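Receptors for glutamate and for GABA receive the main excitatory and inhibitory signals of the brain. Glutamate acts on ionotropic receptors, which are cation channels (AMPA, kainate and NMDA types, with the related delta subunits), and on metabotropic receptors, which signal through G proteins. GABA opens the GABA-A receptor, a chloride channel built from several kinds of subunit, and also acts on the GABA-B receptor, a G-protein-coupled pair of Gabbr1 and Gabbr2. Neurons carry most of these receptors, and some of them are also made by astrocytes and by oligodendrocyte precursors. Overactivation of glutamate receptors is a textbook step in ischemic injury.

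The genes of these receptors were taken by symbol from the array: 26 glutamate receptor genes and 21 GABA receptor genes, 47 in all among 19293 gene symbols. They were covered by 59 of the 30367 probes, and a gene with several probes is given here by its probe with the highest mean signal. The symbols and the mean signal over all arrays decided which probes were taken. A gene was tested where, in 1 or more groups, its probe was well above background on each of the 3 arrays. This left 41 of the 47: all 26 glutamate receptor genes and 15 of the 21 GABA receptor genes. The other 6 were too dim to be tested: Gabra6, Gabre, Gabrp, Gabrr1, Gabrr2 and Gabrr3. Of the 41 tested genes, 39 were well above background on all 9 arrays. The exceptions were Grin3b, above it on 2 of the 3 DHI arrays, and Gabrg3, above it on 3 Sham arrays but on only 1 I/R and 1 DHI array.

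The tissue was the infarcted hemisphere of Sprague Dawley rats on day 14, with 3 rats and 3 one-color arrays per group. Sham rats were sham-operated and received the solvent. I/R rats had the middle cerebral artery occluded for 2 h and then reperfused, and were kept as models only above a set neurological score. DHI rats had the same occlusion and daily Danhong injection, an extract of medicinal plants, into the tail vein until day 14. A hemisphere with an infarct is a mix of dead, spared and invading cells, and in such bulk tissue fewer cells of a type and less RNA per cell cannot be told apart. All Sham and I/R arrays lay on 1 slide and all DHI arrays on another, so slide and Danhong injection cannot be told apart.

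Values are log2 intensities relative to the 75th percentile of each array, so that -1 is 1 doubling below it. Differences are log2 fold changes (log2 FC) with their standard error (SE), from 1 spread per gene shared by all groups. A gene is called here when it passed the study's thresholds for DEGs, an unadjusted p under 0.05 and an FC over 1.5, in limma's test. Adjusted p-values are those of limma with the Benjamini-Hochberg adjustment over all 23747 probes tested. Levels of different probes are not compared, since probes differ in brightness for the same RNA.

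Cell type markers were read on the same arrays. All 10 neuron markers were called lower in I/R than in Sham (median log2 FC -2.52), while 9 of 10 microglia and macrophage markers were called higher (3.79). Of the markers of other regions, the cerebellar gene En2 was well above background on none of the arrays, while 8 of 9 cortical excitatory and 9 of 10 interneuron markers were called lower in I/R. Striatal markers were lower in 3 of 9 cases and varied widely already in Sham, cerebellar ones were split 2 to 2 among 9, and thalamic ones rose in 3 and fell in 2 of 7. Of 10 astrocyte markers 4 rose and 2 fell, and of 5 red blood cell markers 1 rose and 4 fell. Markers that rose numbered 1 of 10 for oligodendrocytes, 3 of 6 for their precursors, 5 of 10 for endothelium and 3 of 7 for choroid plexus, with none that fell. All these counts are to be read beside 22.3% of all probes called lower and 20.8% higher. The cerebellar counts and the 2 astrocyte markers that fell lay near these shares, and the oligodendrocyte count lay below them. The summed level of the neuron markers, in units of the 75th percentile, was 96.7 to 107.9 in Sham, 11.1 to 54.5 in I/R and 36.9 to 114.1 in DHI. That of the microglia and macrophage markers was 20.01 to 24.9, 158.7 to 407.9 and 27.6 to 229.0. The choroid plexus markers were uneven within groups. Their summed level was 0.49 to 1.15 in Sham and 1.38, 2.54 and 94.0 on I/R 1, 2 and 3. On DHI 1, 2 and 3 it was 138.4, 7.54 and 74.7. The part of these markers in the receptor results was not tested.

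Individual arrays stood apart within their groups. Relative to the Sham mean, the median of the glutamate receptor genes was -2.45, -1.64 and -0.62 on I/R arrays 1, 2 and 3, and -1.51, 0.13 and 0.07 on DHI arrays 1, 2 and 3. For the GABA receptor genes it was -3.16, -2.36 and -0.93 in I/R, and -1.55, 0.09 and 0.02 in DHI. I/R 3 was thus the mildest of the I/R arrays, and DHI 1 lay between I/R 2 and I/R 3, apart from DHI 2 and DHI 3. The same order held gene by gene: I/R 3 was the highest I/R array for 38 of the 41 tested genes, and DHI 1 was the lowest DHI array for 39. The neuron markers moved alike, at -3.53, -2.99 and -0.96 in I/R and -1.87, 0.27 and -0.26 in DHI. The median of the astrocyte markers, of which some rose and some fell, was between -0.15 and 0.45 on every array, and that of all probes between -0.16 and 0.07.

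**Figure D1:**
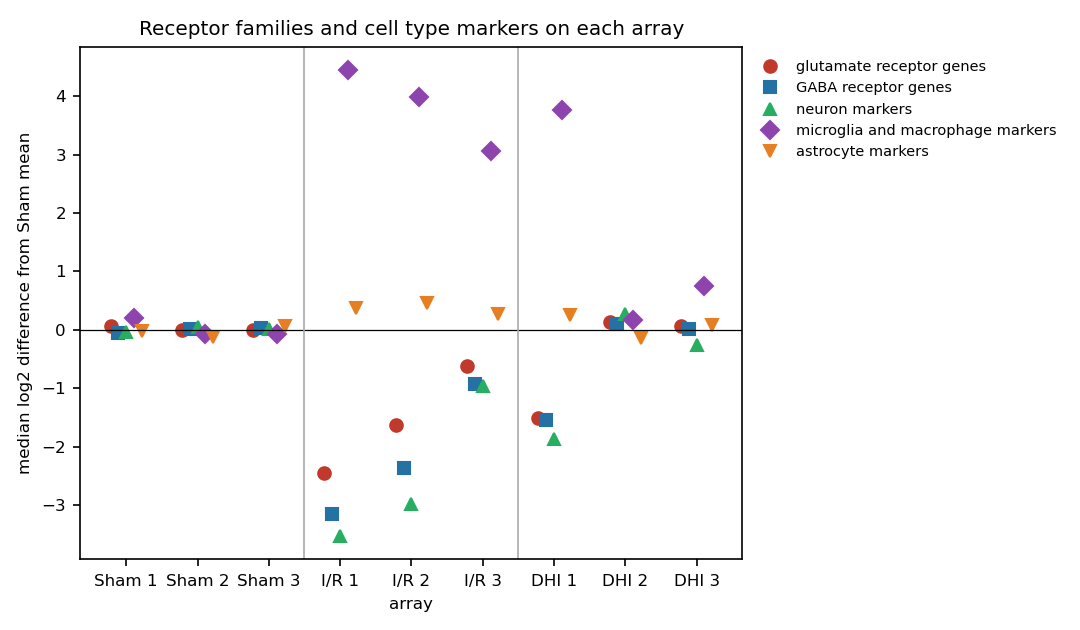
Median log2 difference from the Sham mean (y axis) on each of the 9 arrays (x axis) for the glutamate receptor genes, the GABA receptor genes and markers of neurons, of microglia and macrophages, and of astrocytes. Both receptor families are lowest on I/R 1 (-2.45 and -3.16, with the neuron markers at -3.53) and at about 0 on DHI 2 and DHI 3, while the microglia and macrophage markers run the other way.

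Some sequences identify what was measured. The first 30 bases of the 60-base probes of 3 GluN2 subunits of the NMDA receptor are shown because subunits of this kind differed widely among themselves, and those of the 3 Gabbr1 probes because they disagreed. They are given 5′ to 3′ in lower case, as the array's files hold them, and no base is marked.
Grin2b: gggtcacgcaaaaccctttcatccccactt
Grin2c: tgacctcttgcggtggtcacagggagtaaa
Grin2d: ttcccgccgcccgcgcccacctcgcgttcg
Gabbr1, brightest probe: tcagaacttaagggaaaaagaaatggggac
Gabbr1, middle probe: ggaagagaagtcccgactgttggagaagga
Gabbr1, dimmest probe: atccccgtctttcctgctgccagtgaatcg
On the rn4 build used in the files, the whole probes lie at chr4:172722609-172722668 (Grin2b, minus strand), chr10:105323397-105323456 (Grin2c, minus) and chr1:96309508-96309567 (Grin2d, minus). The Gabbr1 probes lie on the minus strand at chr20:1553442-1553501, chr20:1555345-1555404 and chr20:1577515-1578777. The last of these spans 1263 bases, so its 60 bases come from separate blocks of the genome.

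The first comparison asked what ischemia and reperfusion left of receptor expression in the infarcted hemisphere. In I/R against Sham, 19 of the 26 glutamate receptor genes and 11 of the 15 tested GABA receptor genes were called lower, and none was called higher. These are 73.1% and 73.3% of the families, beside 43.1% of all probes called in either direction (22.3% lower and 20.8% higher). With the adjusted p in place of the unadjusted p, 7 glutamate and 6 GABA receptor genes were lower, or 26.9% and 40.0%, beside 15.1% of all probes. The methods' t-test called 13 and 9 lower, beside 20.3% of all probes. The median log2 FC was -1.56 for the glutamate receptor genes and -2.11 for the GABA receptor genes, while that of all probes was -0.10. Among the GABA receptor genes called lower, Gabrg3 passed the brightness filter only through Sham, and so could only be measured where it was high. Among the probes well above background on all 9 arrays, 10 of 14 GABA receptor genes were called lower, and the medians of both families were -1.54 and -2.14.

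**Figure D2:**
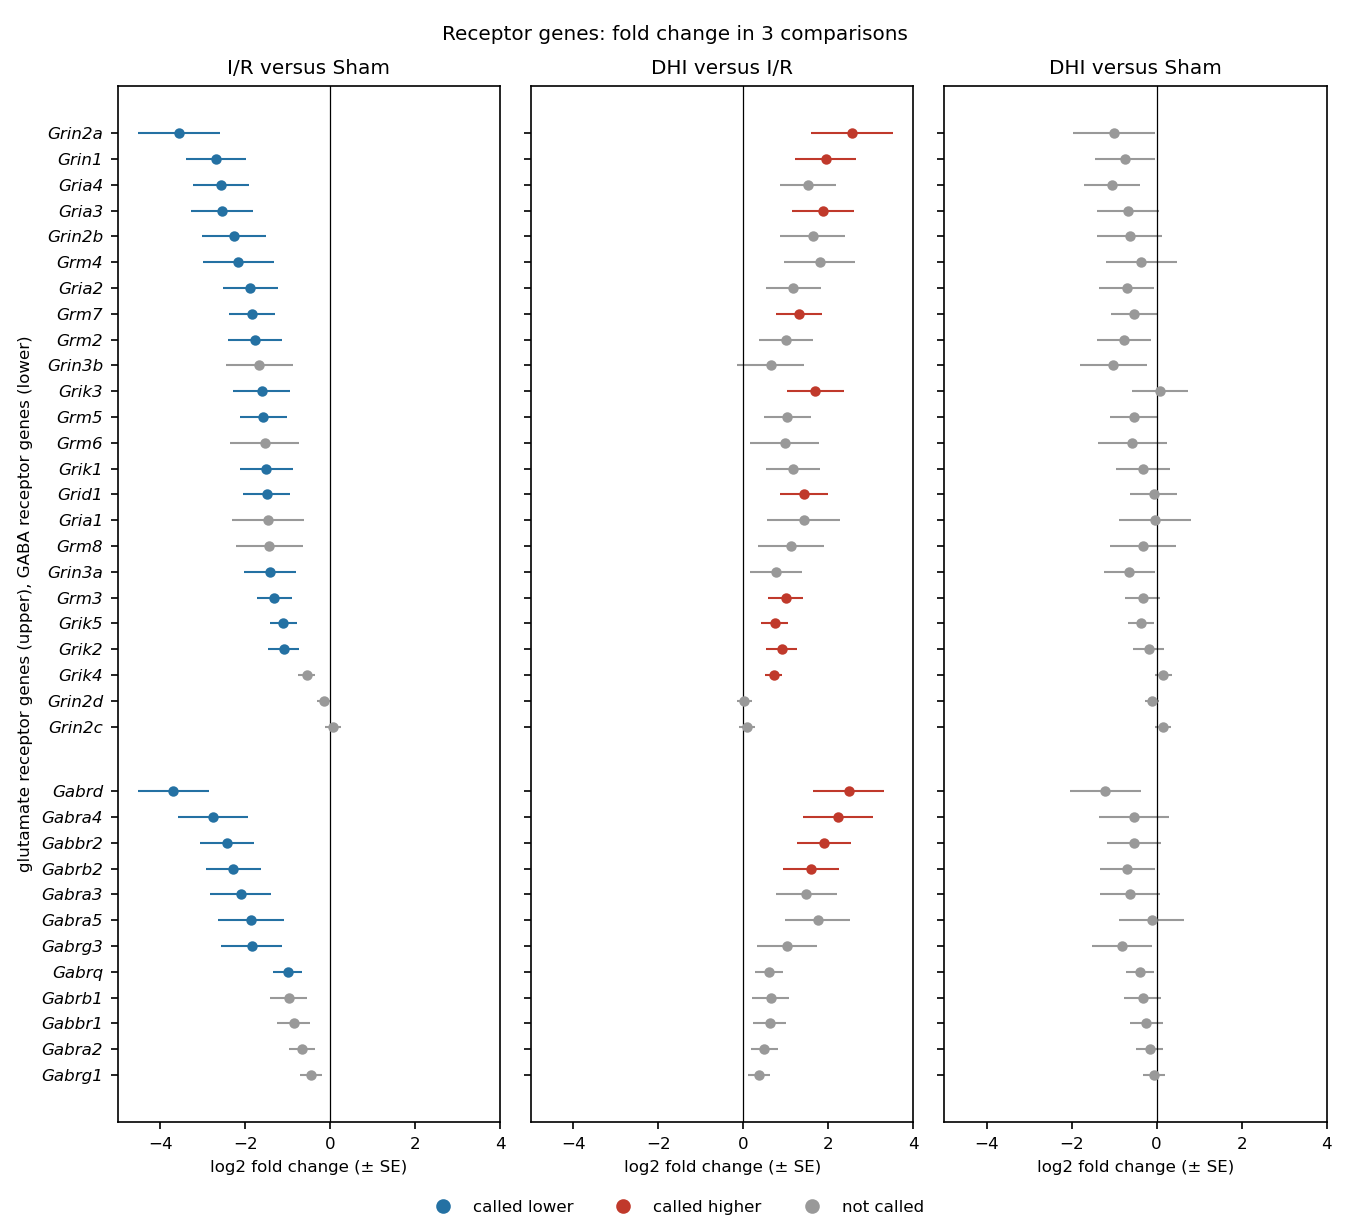
Log2 FC with its SE (x axis) of 36 of the 41 tested receptor genes (y axis, glutamate receptor genes above, GABA receptor genes below, each ordered by I/R versus Sham) in 3 comparisons. Blue marks genes called lower, red those called higher and gray those not called. In I/R versus Sham the values run from -3.56 (Grin2a) and -3.69 (Gabrd) up to 0.07 (Grin2c), and in DHI versus Sham no gene was called.

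The genes of the NMDA receptor ran from a steep fall to no call. Its channels join the obligatory subunit GluN1, encoded by Grin1, with GluN2 subunits (Grin2a to Grin2d), which set the kinetics, or with GluN3 subunits (Grin3a and Grin3b). Grin2a stood at -0.05, 0.52 and 0.34 in Sham, at -4.44, -4.27 and -1.16 in I/R and at -2.24, 0.57 and -0.52 in DHI. All I/R arrays lay below all Sham arrays, with I/R 3 well above the other two. The log2 FC of I/R against Sham was -3.56 (SE 0.96, adjusted p = 0.0403), an 11.8-fold fall and the steepest among the glutamate receptor genes. Grin1 stood at -2.67, -2.56 and -2.56 in Sham, at -6.37, -5.61 and -3.85 in I/R and at -4.64, -2.55 and -2.84 in DHI. Its I/R arrays again lay below all Sham arrays, and it fell by 2.68 on the log2 scale (SE 0.71), with a like value (-2.75) on its other probe. Grin2b, the GluN2 subunit that prevails early in life, fell by 2.26 (SE 0.76). Grin3a fell by 1.41 (SE 0.61), though the second Grin3a probe was not called (-1.29). For Grin3a, I/R 3 at -0.90 lay inside the Sham range of -0.96 to -0.61. The call of Grin3a was lost under 10 of 20 alternatives, the methods' t-test among them.

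Grin2c and Grin2d behaved otherwise. Grin2c, known from cerebellar granule cells and from astrocytes, stood at 1.76, 1.59 and 1.66 in Sham, at 1.65, 1.87 and 1.72 in I/R and at 1.495, 1.84 and 2.16 in DHI. The 3 groups overlapped, and the log2 FC of I/R against Sham was 0.07 (SE 0.19). Grin2d, found in interneurons and in the early brain, stood at 3.94, 3.96 and 3.98 in Sham, at 3.98, 3.78 and 3.71 in I/R and at 3.58, 4.12 and 3.84 in DHI. The groups overlapped here too (log2 FC -0.14, SE 0.17). Grin2d had only 1 probe on the array, and how specific the signal of this probe is was not tested. Neither gene was called under any of the 21 other settings or left-out arrays tried, and only without scaling between arrays did the sign of Grin2d turn (0.06). Within an array and relative to the Sham mean, Grin2a minus Grin2c was -4.68, -4.74 and -1.48 on I/R 1, 2 and 3. The pair was picked after the values were seen, and no test of it was made. Grin3b was dim and scattered in Sham (-6.02, -7.20 and -3.96) and was not called (log2 FC -1.66, SE 0.78).

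The AMPA receptor genes, whose products carry most fast excitation, were lower as well. Gria4 stood at 1.72, 1.94 and 1.96 in Sham, at -1.77, -1.10 and 0.77 in I/R and at -0.20, 1.38 and 1.28 in DHI. Every I/R array lay below every Sham array, and so did every DHI array. Gria4 fell by 2.57 (SE 0.66, adjusted p = 0.0396) in I/R, and its other probe gave -2.22. Gria3 stood at 2.68, 3.04 and 2.82 in Sham, at -0.65, -0.16 and 1.70 in I/R and at 0.79, 3.14 and 2.57 in DHI. The I/R arrays did not reach the Sham range, whereas DHI 2 lay above it, and the fall in I/R was 2.55 (SE 0.72). Gria2, whose subunit keeps calcium out of the channel, fell by 1.88 (SE 0.65), with -1.87 on its other probe. Gria1 was not called (log2 FC -1.46, SE 0.85): I/R 1 and I/R 2 stood at -2.90 and -1.83, but I/R 3 at 0.24 lay inside the Sham range of -0.21 to 0.27. Without I/R 3 it was called, at -2.33.

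Of the 5 kainate receptor genes, 4 were called lower. Grik5, one of the high-affinity subunits, stood at 3.57, 3.54 and 3.37 in Sham, at 2.11, 2.28 and 2.79 in I/R and at 2.45, 3.605 and 3.32 in DHI. The fall was modest but even, with all I/R arrays below Sham and a log2 FC of -1.10 (SE 0.31, adjusted p = 0.0405). Grik2 fell by 1.096 (SE 0.37) and Grik3 by 1.61 (SE 0.67), and Grik1 was 2.83-fold lower. Grik4, the other high-affinity subunit, stood at -3.44, -3.24 and -2.94 in Sham and at -3.81, -4.03 and -3.44 in I/R, where I/R 3 met the lowest Sham array. Its log2 FC was -0.56 (SE 0.20), an FC of 1.47 that fell short of 1.5, and it passed under 6 of the 21 alternatives, quantile normalization and the authors' own table among them. Of the delta subunits, which bind cerebellins rather than open to glutamate, Grid1 fell by 1.49 (SE 0.56).

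Among the metabotropic glutamate receptor genes, 6 of 8 were called lower. Grm5, a group I gene whose receptor raises calcium after the synapse, fell by 1.57 (SE 0.56). Both group II genes, which lower cyclic AMP, fell too, Grm2 by 1.77 (SE 0.63) and Grm3, which astrocytes also make, by 1.32 (SE 0.41). Of group III, the presynaptic receptors Grm4 and Grm7 fell by 2.16 (SE 0.84) and 1.84 (SE 0.54), and only Grm3 and Grm7 of the 8 passed with the adjusted p. Grm8 (log2 FC -1.43, SE 0.78) and Grm6, known from retinal bipolar cells (-1.54, SE 0.81), were not called. For Grm6 this rested on I/R 3, which at -4.16 lay above all Sham arrays while I/R 1 and I/R 2 stood at -7.47 and -6.83. Without I/R 3, Grm6 was called (-2.54).

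The largest fall of any receptor gene was in the GABA-A receptor. Gabrd, the delta subunit of extrasynaptic receptors that carry tonic inhibition, stood at 2.21, 2.49 and 2.00 in Sham, at -2.11, -1.79 and -0.46 in I/R and at -0.99, 2.53 and 1.54 in DHI. All I/R arrays lay below all Sham arrays, at a log2 FC of -3.69 (SE 0.84, adjusted p = 0.0396), or 12.9-fold. Gabra4, an alpha subunit that often joins delta, stood at -0.65, -0.82 and -1.17 in Sham, at -4.59, -3.84 and -2.49 in I/R and at -3.32, -0.28 and -0.65 in DHI. It fell by 2.75 (SE 0.82), with no overlap of I/R and Sham.

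Gabrb2, a beta subunit found in most synaptic GABA-A receptors, stood at -3.50, -3.56 and -3.55 in Sham, at -6.46, -6.19 and -4.81 in I/R and at -5.69, -3.23 and -3.77 in DHI. The 3 Sham arrays were nearly equal (SD 0.03), but the I/R arrays were not (SD 0.88). Gabrb2 fell by 2.28 (SE 0.65, adjusted p = 0.0406), with no overlap of I/R and Sham. Also called lower were Gabra3 (-2.11, SE 0.71), Gabrq (-0.996, SE 0.34), Gabrg3 (-1.85, SE 0.71) and Gabra5 of hippocampal extrasynaptic receptors (-1.86, SE 0.77). Gabrg3 was well above background on only 1 I/R array, so that its level there is mostly a bound. For Gabra5, I/R 3 at -3.17 lay inside the Sham range of -3.66 to -2.94. The call of Gabra5 was lost under 11 of 20 alternatives, the methods' t-test among them.

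Other GABA-A subunits were not called. Gabra2 stood at -1.68, -1.60 and -1.55 in Sham, at -2.68, -2.48 and -1.64 in I/R and at -2.29, -1.54 and -1.49 in DHI. I/R 3 overlapped with Sham, and the log2 FC was -0.66 (SE 0.31). Gabrb1 (-0.97, SE 0.43) had I/R 3 at 1.22, above the Sham range of 1.16 to 1.20. Gabrg1, a gamma subunit also made by glia, lay lower on every I/R array (-0.81, -0.76 and -0.68) than on every Sham array (-0.31, -0.47 and -0.14), but its FC was only 1.36 and it was not called under any of the 21 alternatives. Within an array and relative to the Sham mean, Gabrb2 minus Gabrb1 was -1.20, -1.42 and -1.31 on I/R 1, 2 and 3. This pair was chosen after its values were seen and was not tested.

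**Figure D3:**
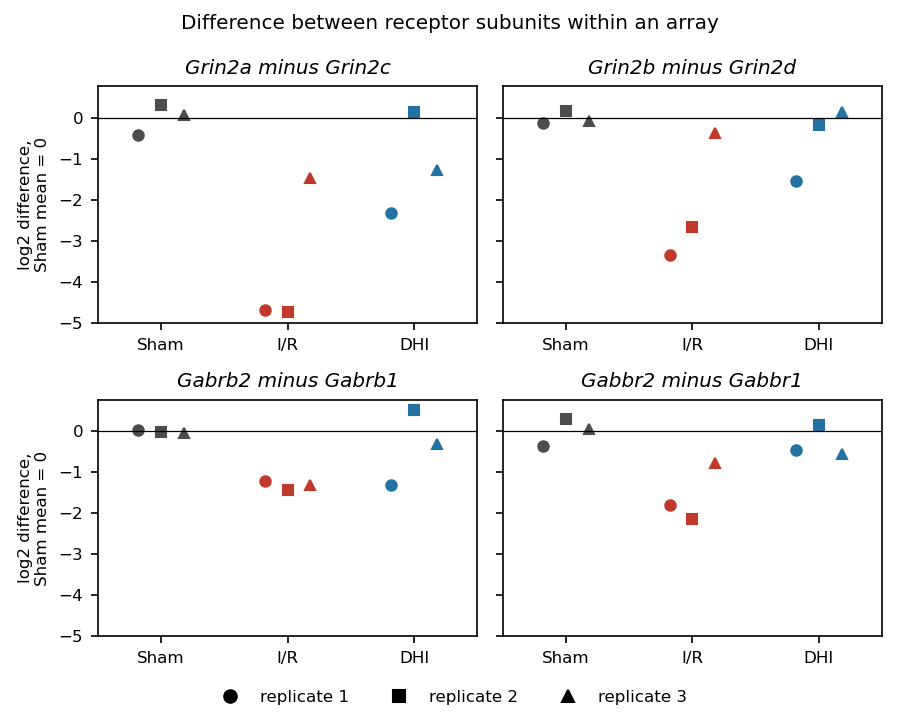
Log2 difference between a pair of receptor subunits on the same array, set to 0 at the Sham mean (y axis), for 3 Sham, 3 I/R and 3 DHI arrays (x axis, symbols are replicates). The 4 pairs were chosen after their values were seen, with the brightest probe of each gene. In each pair the first gene lay further below the second on all 3 I/R arrays than on any Sham array. For Gabbr2 minus Gabbr1 this depends on the probe, since the middle Gabbr1 probe had a lower log2 FC (-1.496) than the brightest (-0.86). Grin2a minus Grin2c reached -4.74 and Gabrb2 minus Gabrb1 stayed between -1.42 and -1.20 in I/R.

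The GABA-B receptor needs both of its subunits at the cell surface. Gabbr2, which couples to the G protein, stood at 4.003, 4.48 and 4.34 in Sham, at 1.08, 1.24 and 3.23 in I/R and at 2.75, 4.57 and 3.92 in DHI. The I/R arrays lay below Sham, and Gabbr2 fell by 2.42 (SE 0.64, adjusted p = 0.0398). Gabbr1, which binds GABA, stood at 2.53, 2.33 and 2.45 in Sham, at 1.03, 1.53 and 2.16 in I/R and at 1.37, 2.57 and 2.64 in DHI on its brightest probe. The I/R arrays lay below Sham, but the log2 FC of -0.86 (SE 0.39) was not called. Its 3 probes, whose sequences are given above, disagreed: the middle one was called lower (-1.496, SE 0.52) and the dimmest gave 0.11 (SE 0.18). The dimmest was well above background on all 9 arrays. The array's annotation assigns it to another transcript record than the brightest and the middle probe. Over the 11 receptor genes with more than 1 probe, Gabbr1 and Grin3a were among the 3 whose probes were not all called alike.

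**Figure D4:**
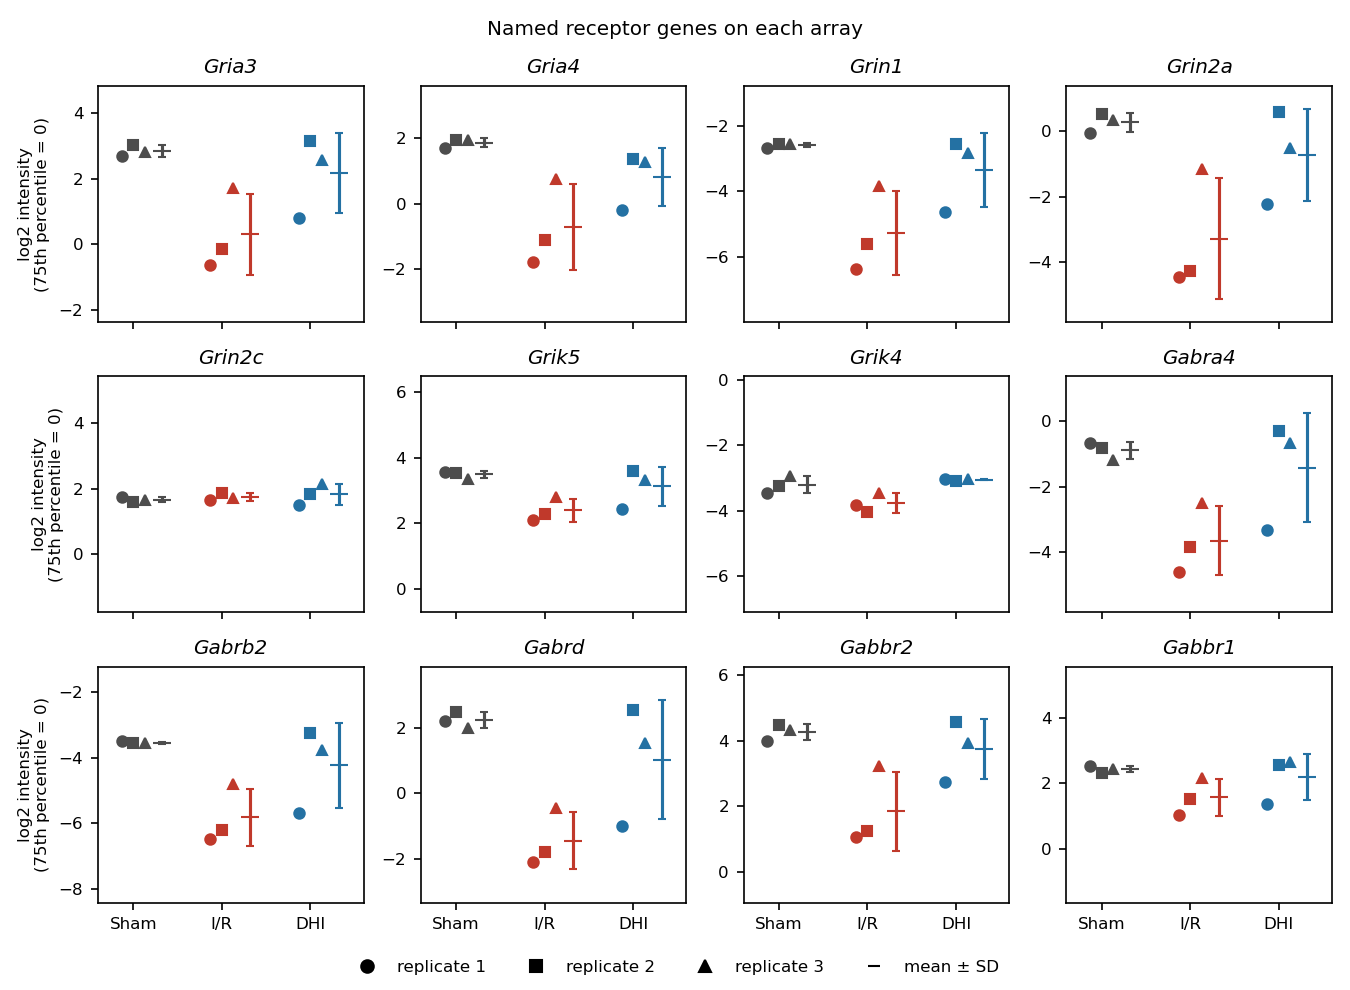
Log2 intensity above or below the array's 75th percentile (y axis, 7.2 log2 units in each panel) of 12 receptor genes in Sham, I/R and DHI (x axis). Symbols are the 3 replicates, and the bar beside them is the mean ± SD. For Gria4, Grin1, Grin2a, Gabra4 and Gabrd all I/R arrays lie below all Sham arrays, I/R 3 (triangle) is the highest I/R array, and DHI 1 (circle) lies apart from the other DHI arrays, whereas the DHI arrays of Grik4 lie together.

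In 32 of the 41 tested genes all 3 I/R arrays lay below all 3 Sham arrays, 20 of 26 glutamate and 12 of 15 GABA receptor genes, beside 35.8% of all probes. Set against the neuron markers, 7 of the 41 genes had a log2 FC below the markers' median of -2.52, among them Gabrd, Grin2a, Gabra4, Grin1, Gria4 and Gria3. Another 9 had a log2 FC above -1, among them Grin2c, Grin2d, Grik4, Gabrg1, Gabra2, Gabbr1, Gabrb1 and Gabrq. These counts rested in part on single arrays. Leaving out I/R 3, the mildest, raised the genes passing with the adjusted p to 18 glutamate and 12 GABA receptor genes, and leaving out DHI 1 to 19 and 11. Leaving out I/R 1 lowered the called genes to 7 and 7, I/R 2 left 9 glutamate receptor genes, and Sham 1 or Sham 3 left 11 or 12. With the adjusted p, none passed without any 1 of the Sham arrays, I/R 1, I/R 2 or DHI 3. Compared within their shared slide with the DHI arrays left out of the fit, 15 glutamate and 10 GABA receptor genes passed with the adjusted p. The whole array moved alike. Of all 23747 probes, 7471 passed with the adjusted p with all arrays, 10135 without I/R 3, 10266 without DHI 1 and 9758 within the shared slide. Without a Sham array, I/R 1, I/R 2 or DHI 3, 0 or 1 probe passed. Called probes fell from 10241 to 7517 without I/R 1 and 7971 without I/R 2.

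The proteins around the receptors were described from 4 lists, to be read beside 22.3% of all probes called lower and 20.8% higher. Of 39 auxiliary and scaffold proteins of glutamate receptors, 28 were called lower and 1 higher in I/R, with a median log2 FC of -1.74. The 3 with the smallest p were Neto1, an auxiliary subunit of kainate and NMDA receptors (-2.23, SE 0.54), Dlgap2, a scaffold of the postsynaptic density (-2.60, SE 0.65), and Cacng3, a trafficking subunit of AMPA receptors (-3.49, SE 0.88). The single riser was Homer3, a scaffold of metabotropic receptors (2.22, SE 0.59). Of 18 genes of glutamate synthesis, packaging and uptake, 9 were called lower and 2 higher (median -0.83). Among those with the smallest p were Gls2, a glutaminase (-2.81, SE 0.66), and Slc7a11, the cystine-glutamate exchanger, which rose by 1.49 (SE 0.42).

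Of 11 genes of GABA synthesis, packaging, uptake and breakdown, 5 were called lower and 4 higher (median -0.63). Among those with the smallest p, the transporter Slc6a12 (1.34, SE 0.37) and the amine oxidase Maob (0.94, SE 0.27) rose. Of 21 genes of GABA receptor scaffolds, trafficking and chloride transport, 11 were called lower and 2 higher (median -0.79), led by the trafficking proteins Trak2 (-0.87, SE 0.18) and Plcl1 (-0.91, SE 0.21) and by Gabarap, which rose by 0.88 (SE 0.21). Also lower were Slc12a5, the chloride exporter that makes GABA inhibitory (-2.64, SE 0.69), and the GABA-synthesizing enzymes Gad1 (-1.92, SE 0.73) and Gad2 (-2.08, SE 0.82). Homer3, Slc12a5, Gad1 and Gad2 were named after their values were seen.

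The second comparison asked whether Danhong injection went with different receptor expression after I/R. In DHI against I/R, 10 of 26 glutamate and 6 of 15 GABA receptor genes were called higher, and none lower, which is 38.5% and 40.0% beside 21.9% of all probes called in either direction (11.5% higher and 10.5% lower). The median log2 FC was 1.14 and 1.59, and 0.10 over all probes. None passed with limma's adjusted p, whose smallest value among the receptor genes was 0.196, and 0% of all probes were higher by it. The methods' t-test called 1 glutamate receptor gene, Grik4, and no GABA receptor gene, beside 1.24% of all probes. This comparison shares its I/R arrays with the first one, so a gene that was low on these arrays enters both.

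Grik4, which the study lists among its DEGs from these same arrays, was called with less scatter than the other called genes. It stood at -3.04, -3.08 and -3.04 on the DHI arrays, above all I/R arrays (-3.81, -4.03 and -3.44), with a log2 FC of 0.71 (SE 0.20). Its adjusted p in limma was 0.196, the same as for the other called genes. Among the 41 tested genes only Grik4 had no overlap of DHI and I/R. This is a lower share than the 5.51% of all probes with every DHI array above every I/R array. The call held under 18 of 20 other settings or left-out arrays and was lost without scaling and without I/R 2.

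The other called genes had larger differences and more scatter. Among the largest were Grin2a (2.56, SE 0.96), Gabrd (2.48, SE 0.84), Gabra4 (2.22, SE 0.82), Grin1 (1.93, SE 0.71), Gabbr2 (1.90, SE 0.64) and Gria3 (1.87, SE 0.72). They were followed by Grik3 (1.69, SE 0.67), Gabrb2 (1.59, SE 0.65), Grid1 (1.43, SE 0.56), Grm7 (1.30, SE 0.54), Grm3 (1.00, SE 0.41), Grik2 (0.91, SE 0.37) and Grik5 (0.73, SE 0.31). In each of the 15 called genes other than Grik4 the DHI and I/R arrays overlapped. Of the genes not called, Grm4 (1.79, SE 0.84), Gabra5 (1.75, SE 0.77) and Grin2b (1.63, SE 0.76) had log2 FC values in the same range, and Grin2c and Grin2d were at 0.08 (SE 0.19) and 0.02 (SE 0.17). Those of Grin2c and Grin2d turned below 0 with quantile normalization, and without scaling, which set the median of all probes at -0.36, that of Gabrg1 did so too.

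**Figure D5:**
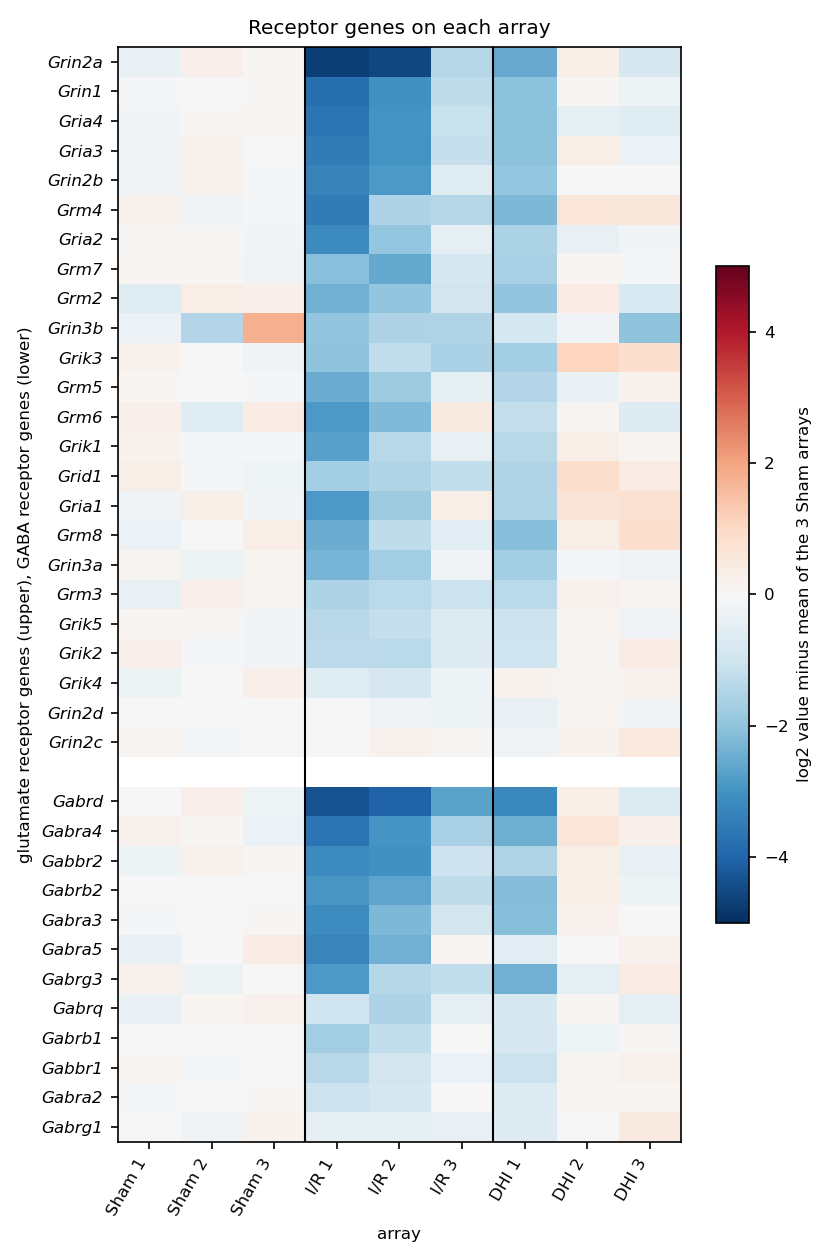
Log2 value minus the mean of the 3 Sham arrays (color) for 36 of the 41 tested receptor genes (rows, glutamate receptor genes above, GABA receptor genes below) on the 9 arrays (columns). The I/R columns and DHI 1 are lower (blue) for most genes, palest on I/R 3, DHI 2 and DHI 3 are near 0, and Grin2c and Grin2d stay near 0 on every array.

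The scatter lay mainly with DHI 1 on one side and I/R 3 on the other. DHI 1 lay within the range of the I/R arrays for 36 of the 41 tested genes and below all Sham arrays for 39, whereas DHI 2 and DHI 3 both lay above all I/R arrays for 33. DHI 1 was also the DHI array with the lowest neuron markers (a summed level of 36.9) and the highest microglia and macrophage markers (229.0). Without DHI 1, 21 glutamate and 12 GABA receptor genes were called higher, and 15 and 11 passed with the adjusted p. Without I/R 3, 16 and 12 were called. Without both arrays, an alternative added after the data were seen, 23 and 15 were called, 22 and 15 of them with the adjusted p. When I/R 1, I/R 2, DHI 2 or DHI 3 was left out instead, however, only 1 glutamate receptor gene and at most 1 GABA receptor gene was called. Without 1 of the Sham arrays, which enter through the shared spread, 6 or 7 and 3 were called. Fitted with the I/R and DHI arrays alone, 1 and 2 were called. All probes swung with these choices, so the shifts were not confined to receptor genes. Of 23747 probes, 5211 were called with all arrays. The count was 10737 when DHI 1 was dropped, 7719 when I/R 3 was and 12223 when both were. With the adjusted p, 9527 passed when DHI 1 was dropped and 11784 when both were. Dropping I/R 1 gave 1381 calls, I/R 2 gave 1659, DHI 2 gave 939 and DHI 3 gave 1127. The 2 groups fitted alone gave 2149.

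Of the lists around the receptors, to be read beside 11.5% of all probes called higher and 10.5% lower, 23 of 39 auxiliary and scaffold genes of glutamate receptors were called higher with Danhong injection and none lower, as were 7 of 21 genes of GABA receptor scaffolds and chloride transport. Genes of glutamate synthesis and uptake were split 4 to 1, and of the 11 genes of GABA synthesis and uptake 1 was called lower, a share near that of all probes. The neuron markers were called higher in 9 of 10 cases and the microglia and macrophage markers lower in 8 of 10. Of the other markers, 4 of 5 for red blood cells were called higher and 1 lower (median log2 FC 2.67), 3 of 10 for oligodendrocytes were higher, and 3 of 10 for endothelium and 2 of 10 for astrocytes were lower. Their part in the receptor results was not tested.

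In the third comparison, DHI against Sham, no receptor gene was called in either family, and 0 had an unadjusted p under 0.05, beside 3.58% of all probes called (2.52% higher and 1.06% lower). The median log2 FC was -0.46 for the glutamate and -0.53 for the GABA receptor genes, and the methods' t-test called 0 as well, beside 1.89% of all probes. Among the widest differences were those of Gabrd (-1.21, SE 0.84), Gria4 (-1.05, SE 0.66), Grin3b (-1.02, SE 0.78) and Grin2a (-0.998, SE 0.96), and with such errors a difference of 1 doubling was not detectable. Gria4 and Gria2 (-0.71, SE 0.65) were the only genes of which all DHI arrays lay below all Sham arrays, beside 8.33% of all probes. Without DHI 1 the medians were 0.01 and 0.03, and 14 of 26 glutamate and 8 of 15 GABA receptor genes had a log2 FC above 0. Without DHI 2 the medians were -0.68 and -0.94, and without DHI 3 they were -0.74 and -0.71, with 0 GABA receptor genes above 0 in either case.

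Promoters were searched for letters that the choice of genes had not used. RefSeq's table of promoters (GRCr8, from 250 bases before to 50 bases after a gene's start) held 30 of the 47 genes, 14 glutamate and 16 GABA receptor genes, among 33469 promoters. The binding letters of CREB (TGACGTCA) were in 0 of the 30, beside 1.83% of all promoters, and a part of the site of the neuronal repressor REST was in 0, beside 0.657%. The NRF1 motif was in 2 of 16 GABA and 0 of 14 glutamate receptor promoters, beside 4.25% of all. At shares this low, counts of 0 or 2 in so few promoters cannot tell these genes from the rest. Both strands were searched, and the motifs do not overlap each other. The 2 promoters with the NRF1 motif, those of the beta subunits Gabrb1 and Gabrb2, are shown from the 250th base before the start to the last, 5′ to 3′ on the strand of the gene, with the motif in capitals.
Gabrb1: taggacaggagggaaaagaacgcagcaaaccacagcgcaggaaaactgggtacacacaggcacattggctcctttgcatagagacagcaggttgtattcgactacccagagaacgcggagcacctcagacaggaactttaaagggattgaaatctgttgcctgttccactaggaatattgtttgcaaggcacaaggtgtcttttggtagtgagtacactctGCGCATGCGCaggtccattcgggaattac
Gabrb2: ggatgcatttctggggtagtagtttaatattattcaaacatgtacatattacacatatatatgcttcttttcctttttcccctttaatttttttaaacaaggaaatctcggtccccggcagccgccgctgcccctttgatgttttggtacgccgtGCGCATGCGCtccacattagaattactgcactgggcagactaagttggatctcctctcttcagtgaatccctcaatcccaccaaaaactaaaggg
On GRCr8 they lie at chr14:36902894-36903143 (Gabrb1, minus strand) and chr10:27439543-27439792 (Gabrb2, plus strand). Gabrb2 was called lower in I/R (-2.28) and higher in DHI than in I/R (1.59), while Gabrb1 was called in neither comparison (-0.97 and 0.64). A match of letters does not show that a factor binds there. The median GC content of the 30 promoters was 59.2%, beside 51.7% in all promoters.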

How the data were processed

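Total RNA of the infarcted hemisphere was hybridized to one-color Agilent SurePrint G3 Rat arrays. Per the file headers and labels, the authors deposited linear spot intensities from Feature Extraction 10.7.1.1, corrected for background and not scaled between arrays, and a series table of log2 values, which was used as an alternative and followed quantile-normalized log2 intensities (Pearson's r 0.9995). No value column was left unused (0 columns).

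Control and outlier spots (392 to 725 per array) were left out, the 75th percentile of the array was subtracted from log2 intensities, and spots of a probe were averaged. Between 75.2% and 78.9% of probes were well above background on an array, and 0 spots were saturated. The number of arrays limits the precision. A probe was tested where 1 or more groups had it well above background on each of their 3 arrays. R 4.3.3 and limma 3.58.1 (lmFit, eBayes) were fitted to all 9 arrays and 23747 probes, with an offset of 50 in the normexp alternative. Each rat gave 1 array, so p-values rest on the spread between 3 rats per group. Limma pooled this spread over all groups, so a gene had the same SE in every comparison. The spreads could be unequal. Grin2a had an SD of 0.29 among Sham arrays, beside 1.85 for I/R and 1.42 for DHI, and its SE was 0.96 throughout. Grin3b went the other way, with 1.64 among Sham arrays beside 0.26 for I/R. DHI versus I/R thus drew on the Sham spread too. With only the 2 groups compared, called probes fell from 5211 to 2149. The steps were tested on simulated data that gave a probe the same spread in all 3 groups, so unequal spreads were not tested there. The methods' t-test is the test that the study names.

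The members, lists and thresholds were chosen with earlier results of these data known. The rule for named genes was to account for every member, to give values on every array for the 5 called members with the smallest p per family in I/R versus Sham and for Grik4, and to name the 3 called genes with the smallest p of each list. Some genes (5 of the 41 tested receptor genes among them) are counted throughout but not reported by name here. Grin2c, Grin2d, Gabra2 and Gabbr1 were added after their values were seen. The lists held markers of 13 cell types and 4 pathways. Alternatives were quantile normalization, no scaling, normexp, the authors' table, no filter, probes above background on all 9 arrays, only the 2 groups compared, the t-test, array weights, a replicate block, the mean over a gene's probes, and leaving out each array. Replicate numbers did not pair the samples: deviations of same-numbered arrays correlated between -0.34 and 0.48. Gene symbols and rn4 positions are those of the files, and all 47 symbols are in RefSeq.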

Additional observations from a re-analysis of the deposited data

How the results depend on the processing

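In I/R versus Sham no called receptor gene changed direction under any alternative, and 7 of 19 glutamate and 6 of 11 GABA receptor genes kept their call in all 20 of the listed settings. Among them were Gria3, Gria4, Grik5, Grin1, Grin2a, Grm3 and Grm7, and Gabbr2, Gabra4, Gabrb2 and Gabrd. The called glutamate receptor genes ranged from 7 to 20 and the GABA ones from 7 to 14 when each array was left out. With the adjusted p these ranges were 0 to 19 and 0 to 12. Without scaling 0 and 0 passed the adjusted p, with array weights 23 and 14, with only the 2 groups compared 15 and 10, with the replicate block 13 and 10, and without I/R 3 and DHI 1 together 23 and 14. The methods' t-test left 3 GABA receptor genes with an adjusted p. Of all 23747 probes, 1 passed the adjusted p without scaling, 12905 with array weights and 9758 with only the 2 groups compared. It was 8426 with the replicate block, 12152 without I/R 3 and DHI 1 together and 6183 by the methods' t-test, beside 7471 in the main fit. Called probes ranged from 7517 to 11539 when each array was left out. Without the filter on dim probes, the median of the GABA receptor genes was -1.18, since the 6 dim genes entered, and with normexp background correction it was -1.38.

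In DHI versus I/R, 0 of the called genes kept their call throughout, and all kept their direction. For glutamate and GABA receptor genes in turn, 0 and 2 were called without scaling, 1 and 2 with only the 2 groups compared, 1 and 0 by the methods' t-test, 23 and 15 with array weights, and 23 and 15 without I/R 3 and DHI 1. Leaving out each array gave 1 to 21 and 0 to 12. With the adjusted p, 23 and 15 passed with array weights, 22 and 15 without I/R 3 and DHI 1, and 0 to 15 and 0 to 11 with each array left out. The medians without I/R 3 and DHI 1 were 2.28 and 2.82, and with each array left out 0.68 to 1.66 and 0.96 to 2.20. Leaving out I/R 3 and DHI 1 together was chosen after seeing the data. Of all 23747 probes, 7436 were called without scaling, 2149 with only the 2 groups compared and 469 by the methods' t-test. It was 11815 with array weights, 12223 without I/R 3 and DHI 1, and 939 to 10737 with each array left out. With the adjusted p, 11713 probes passed with array weights and 11784 without I/R 3 and DHI 1. In DHI versus Sham, array weights called 3 glutamate and 1 GABA receptor genes, 1 of the 3 with the adjusted p. With each array left out, 0 to 2 and 0 to 1 were called, and leaving out I/R 3 and DHI 1 gave 2 glutamate receptor genes. Of all probes, 3540 were called with array weights, 344 to 2519 with each array left out and 1207 without I/R 3 and DHI 1. Scaling moved the median of all probes from -0.10 to 0.10 in I/R versus Sham and from 0.10 to -0.36 in DHI versus I/R when it was left out. The replicate block kept all 30 calls of I/R versus Sham and all 16 of DHI versus I/R. The causes of these changes were not tested.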
